A study of Mus musculus with 64 samples.

Results

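A set of 10 genes that drive or carry out mitochondrial biogenesis were followed in the hearts of mice with and without a troponin T transgene, after interval training or none. They were taken by name, and all 10 occurred in the deposited table of 16913 genes: the coactivators Ppargc1a and Ppargc1b, the nuclear receptors Esrra, Esrrb and Esrrg, the muscle regulator Perm1, the transcription factor Nrf1, and Tfam, Tfb2m and Polrmt, which transcribe mitochondrial DNA. PGC-1 coactivators have no DNA-binding domain and act through partners, above all the estrogen-related receptors (ERR) and nuclear respiratory factor 1, at nuclear genes for respiration, fatty acid oxidation and mitochondrial DNA expression. In skeletal muscle, PGC-1alpha is a textbook exercise-induced gene. In the heart, the PGC-1 and ERR genes maintain the high mitochondrial content of cardiomyocytes.

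All mice were C57BL/6J. Transgenic (TG) mice carried cTnT-delta160E, a form of cardiac troponin T that models hypertrophic cardiomyopathy, and nTG mice carried no transgene. The labels used here do not give the promoter of the transgene, the age of the mice or the part of the heart taken. High-intensity interval training (HIIT) ran for 6 weeks on a treadmill, with 3 sessions of 31 min a week, with 4 fast (85% of the mean speed reached in an exercise test) and 4 slow (50%) intervals, and sedentary (Sed) mice did not run. The 8 groups were sedentary nTG males (n = 7), trained nTG males (n = 8), sedentary TG males (n = 9), trained TG males (n = 8), sedentary nTG females (n = 8), trained nTG females (n = 10), sedentary TG females (n = 8) and trained TG females (n = 6). The question was whether training moves these regulators in normal and in diseased hearts, and how the transgene itself moves them.

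The column names of the gene table did not match the labels, and every result rests on a reassignment of its columns. By deposited name, 32 of 64 libraries contradicted the labelled sex, and the counts of Tnnt2, the troponin T gene that the transgene adds to, ranged from 2737 to 12001 CPM (counts scaled to a common library size) in libraries named nTG and from 2665 to 10336 CPM in those named TG. Each column of the lncRNA table was therefore given the gene column it correlated with best over 389 autosomal transcripts found in both tables. The best match had r of 0.599 to 0.863, no other column exceeded 0.404, and the 64 matches were distinct. After it, 0 libraries contradicted the labelled sex, and Tnnt2 was 2665 to 3428 CPM in nTG and 6903 to 12001 CPM in TG hearts. No gene checks the training label in the same way. Gene counts summed to 34.6 to 67.1 M per library. The cardiomyocyte markers were high in all libraries (Myh6 29500 to 47400 CPM), 5 of 9 skeletal muscle markers, among them Myh4 and Tnnt3, were not in the table, and neither were 4 of 7 brown fat markers, among them Ucp1. The 4 skeletal markers present were Ckm (1180 to 2110 CPM), Acta1 (63.3 to 951 CPM), Myl1 (5.42 to 83.7 CPM) and Tnni2 (0.156 to 1.57 CPM). The 3 of brown fat were Cidea (9.94 to 19.3 CPM), Cfd (0.0976 to 22.3 CPM) and Plin1 (0.118 to 6.82 CPM).

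All 10 genes were well measured, with at least 441 counts in every library. Per kilobase of exon, Perm1 had the highest level, with a median of 120 CPM per kb over the 64 libraries and a range of 99.3 to 147. Esrra followed at 33.1 (26.2 to 38.9) CPM per kb, and both ranges overlapped neither each other nor those of the genes below. Ppargc1a (median 19.2 CPM per kb), Tfb2m (16.6), Ppargc1b (15.7), Polrmt (11.2), Esrrb (9.07) and Esrrg (8.69) formed a run in which each range overlapped the next. Tfam at 4.68 (3.79 to 5.78) and Nrf1 at 1.33 (1.15 to 1.52) CPM per kb lay below, each apart from its neighbours. The lengths join all annotated exons of a gene, 10282 bases for Nrf1 and 4387 for Esrra. Their longest protein-coding transcripts have 3584 and 2242 bases. Whether the order and the gaps hold with transcript lengths was not tested. The genes varied little between hearts: the highest library exceeded the lowest by 1.32-fold for Nrf1 and by 2.01-fold for Ppargc1b, the extremes among the 10. Exons of Esrra share 73 bases with Trmt112 on the opposite strand, and whether strand was used in counting is not given in the sources used here.

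**Figure D1:**
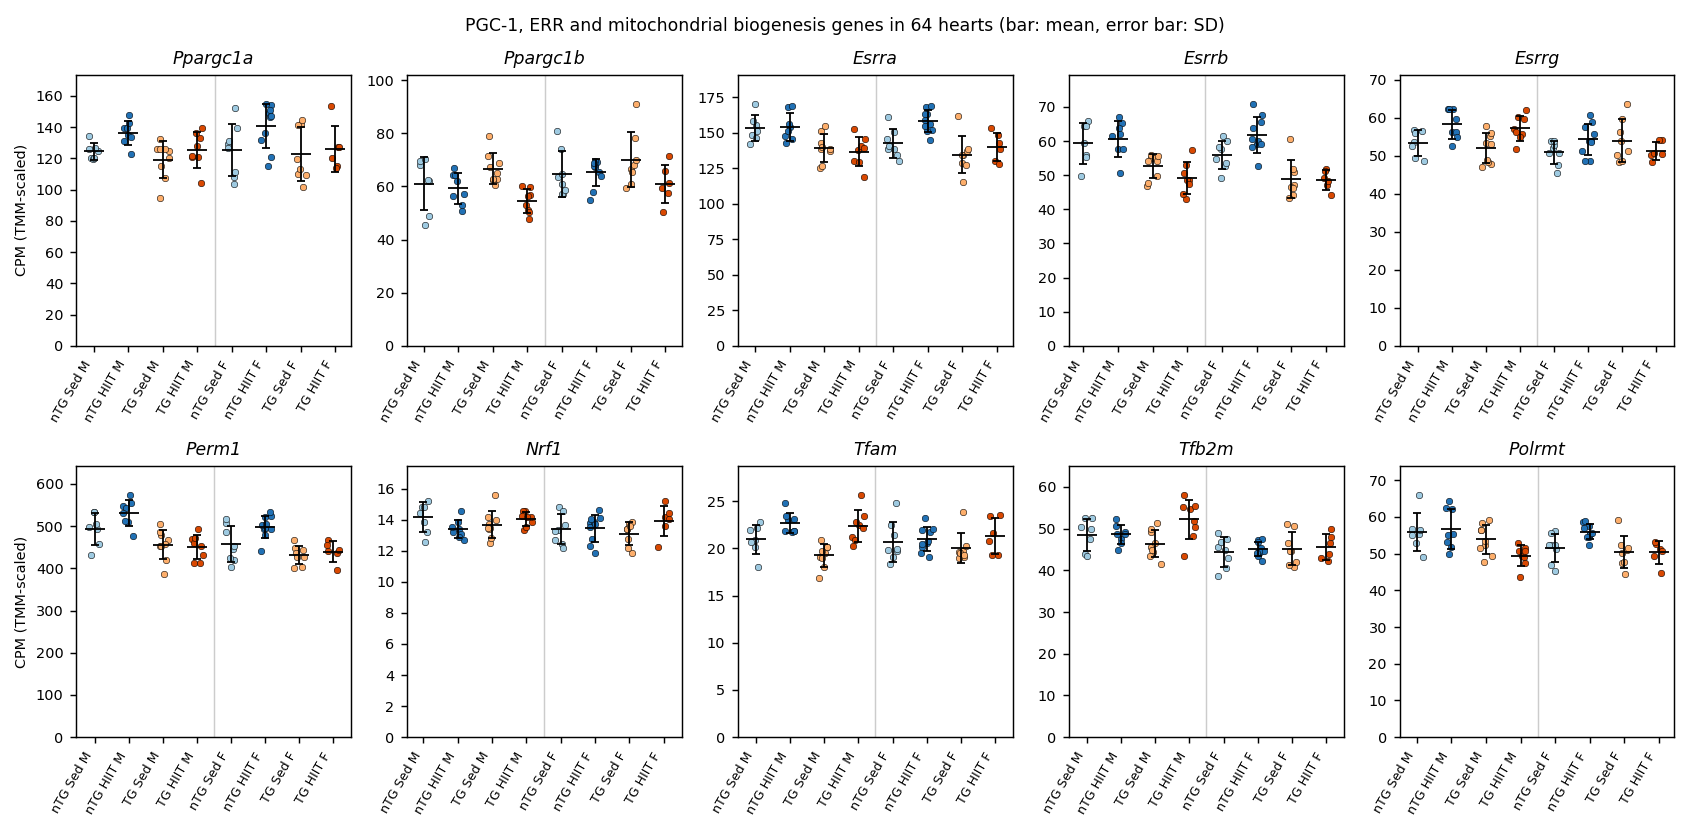
Normalised counts (CPM, linear axis from 0) of each gene in each of the 64 hearts, by group, with the group mean as a bar and the SD as error bars. Within each gene the 8 groups lie close together; Esrrb and Perm1 sit lower in the TG groups of both sexes, and Ppargc1b is lowest in trained TG males, where the mean is 54.4 CPM.

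Promoter windows of 300 bases, from 250 bases before to 50 bases after the start in RefSeq (GRCm38.p6), were available for 9 of the 10 genes. They are shown for 5 genes whose counts turn out to differ between groups, Perm1, Polrmt and Esrra with the transgene and Tfam and Tfb2m with training in TG males. The windows lie at chr4:156215677-156215976 (plus strand) for Perm1, chr10:79746532-79746831 (minus) for Polrmt, chr19:6921759-6922058 (minus) for Esrra, chr10:71237995-71238294 (minus) for Tfam and chr1:179546227-179546526 (minus) for Tfb2m. Each is written 5′ to 3′ on the gene's strand, and capitals mark matches to the ERR core AAGGTCA, the extended ERR element TNAAGGTCA, the NRF-1 site (GCGCA, any base, then GCGC) or the ETS site of GABP, CCGGAAGT, on either strand.
Perm1: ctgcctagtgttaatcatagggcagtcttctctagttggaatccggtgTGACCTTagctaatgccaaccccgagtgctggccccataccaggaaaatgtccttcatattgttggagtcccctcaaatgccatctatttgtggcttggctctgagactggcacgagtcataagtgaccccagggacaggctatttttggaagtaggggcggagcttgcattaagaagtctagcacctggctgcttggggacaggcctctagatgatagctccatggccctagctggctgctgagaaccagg
Polrmt: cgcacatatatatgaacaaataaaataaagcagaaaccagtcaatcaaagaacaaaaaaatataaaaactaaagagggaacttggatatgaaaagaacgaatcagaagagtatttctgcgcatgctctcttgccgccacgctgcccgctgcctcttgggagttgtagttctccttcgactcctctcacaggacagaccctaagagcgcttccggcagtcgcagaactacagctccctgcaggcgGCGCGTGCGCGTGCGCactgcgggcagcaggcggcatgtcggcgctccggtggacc
Esrra: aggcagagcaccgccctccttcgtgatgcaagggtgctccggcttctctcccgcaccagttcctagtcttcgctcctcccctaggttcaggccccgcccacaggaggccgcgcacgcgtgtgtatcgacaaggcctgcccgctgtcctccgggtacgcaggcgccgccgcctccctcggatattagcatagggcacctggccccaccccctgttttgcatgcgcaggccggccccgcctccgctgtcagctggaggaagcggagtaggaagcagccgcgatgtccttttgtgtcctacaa
Tfam: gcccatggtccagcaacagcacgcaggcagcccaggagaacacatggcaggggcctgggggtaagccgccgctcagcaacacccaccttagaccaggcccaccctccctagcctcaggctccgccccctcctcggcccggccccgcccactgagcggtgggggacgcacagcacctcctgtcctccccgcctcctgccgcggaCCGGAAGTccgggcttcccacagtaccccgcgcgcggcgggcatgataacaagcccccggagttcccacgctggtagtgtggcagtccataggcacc
Tfb2m: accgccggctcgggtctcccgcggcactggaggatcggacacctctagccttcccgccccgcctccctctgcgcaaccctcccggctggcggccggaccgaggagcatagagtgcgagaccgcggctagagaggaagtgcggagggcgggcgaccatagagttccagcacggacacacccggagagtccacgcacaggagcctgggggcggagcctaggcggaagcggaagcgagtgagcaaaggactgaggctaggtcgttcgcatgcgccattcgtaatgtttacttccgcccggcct

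The Perm1 window holds the ERR core on the minus strand of the gene, 202 bases before the start. The Polrmt window holds 2 overlapping matches to the NRF-1 site, at 6 bases before the start and at the start itself. An ETS site lies 47 bases before the start of Tfam. None of these letters occurs in the Tfb2m and Esrra windows, nor in those of Ppargc1a, Esrrb, Esrrg and Nrf1. Among 32851 promoter windows of the same length, 4.72% held the ERR core, 1.28% the extended element, which contains the core, 4.6% the NRF-1 site and 3.89% the ETS site. A match is a description of the letters only.

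Training of nTG hearts moved none of the 10 genes past the threshold, which was a Benjamini-Hochberg adjusted p under 0.05 over all genes in edgeR's quasi-likelihood test. Ppargc1a was 119 to 134 CPM (median 125) in sedentary and 123 to 148 CPM (median 137) in trained nTG males. In nTG females it was 104 to 153 CPM (median 128) in sedentary and 115 to 155 CPM (median 147) in trained hearts. The trained values lie above the sedentary median in 7 of 8 males and 8 of 10 females, and the groups overlap in both sexes. The log2 fold change with training was 0.13 ± 0.07 (SE, adjusted p = 0.865) in males and 0.17 ± 0.07 (adjusted p = 0.243) in females. Averaged over the sexes it was 0.15 ± 0.05, with a 95% interval of 0.05 to 0.25 and an adjusted p of 0.16.

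Perm1, a muscle protein induced by PGC-1 and ERR, had the smallest p of the 10 genes in the nTG mean of sexes, with a log2 fold change of 0.12 ± 0.03 (adjusted p = 0.107). Esrrg gave 0.11 ± 0.04 (adjusted p = 0.144). For Tfb2m, Ppargc1b and Nrf1 the 95% intervals of the mean log2 fold change were -0.06 to 0.08, -0.12 to 0.1 and -0.1 to 0.03, so changes beyond these sizes lie outside the intervals. In nTG females Esrra was 130 to 161 CPM in sedentary and 145 to 169 CPM in trained hearts, above the sedentary median in 10 of 10, with a log2 fold change of 0.15 ± 0.05 (adjusted p = 0.155). The share of all genes past the threshold was 0% in nTG males (999 genes had an unadjusted p under 0.05, and DESeq2 called 4), 0.148% in nTG females and 0.384% for the mean of the sexes, so few genes of any kind were called. Leaving out 1 library took the 25 genes called in nTG females to between 0 (without sedentary 3) and 62 (without trained 4), and the 65 of the mean to between 5 (without sedentary female 4) and 133 (without sedentary female 6). DESeq2, whose independent filtering adjusted over 2813 genes in nTG females and 5437 in the mean of the sexes, called Esrra in the former (adjusted p = 0.0489) and Perm1 in the latter (adjusted p = 0.0445), and blood and skeletal muscle covariates gave Ppargc1a in that mean (0.18, adjusted p = 0.0397).

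Among the training contrasts of a single stratum, only that of TG males had any of the 10 genes past the threshold. There 4 of the 10 passed, as did 18% of all genes. Those 3036 genes became 1702 without trained TG male 7 and 4061 without trained TG male 4. Tfam, which packages mitochondrial DNA and starts its transcription, was 16.8 to 20.8 CPM (median 19.5) in 9 sedentary and 20.3 to 25.7 CPM (median 22.3) in 8 trained TG males. All trained values lie above the sedentary median, and the ranges overlap slightly. The log2 fold change was 0.22 ± 0.05 (adjusted p = 0.00374). Tfb2m, which lets the mitochondrial polymerase open its promoters, was 41.6 to 51.4 CPM in sedentary and 43.5 to 58.1 CPM in trained hearts, a log2 fold change of 0.17 ± 0.05 (adjusted p = 0.0133). Esrrg, the ERR isoform tied to oxidative muscle and perinatal heart, was 47.2 to 57.8 and 51.7 to 62.1 CPM, a log2 fold change of 0.14 ± 0.05 (adjusted p = 0.0423).

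Ppargc1b, the coactivator related to Ppargc1a, was lower after training. It was 60.7 to 78.8 CPM (median 64.9) in sedentary and 47.9 to 60.2 CPM (median 54.7) in trained TG males, so the groups did not overlap, as for 1.09% of all genes. The log2 fold change was -0.29 ± 0.08 (adjusted p = 0.00804). Of all genes, 10.3% were called higher and 7.6% lower in this comparison, and the 3 genes higher and 1 lower of the 10 are to be read against those shares. Ppargc1a itself was 94.8 to 132 CPM in sedentary and 104 to 140 CPM in trained TG males, with a log2 fold change of 0.07 ± 0.07 (adjusted p = 0.506). Polrmt, the mitochondrial RNA polymerase, gave -0.12 ± 0.05 (adjusted p = 0.0842), with all 8 trained values below the sedentary median.

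These differences in TG males moved with the base composition of the genes. For each library a smooth trend of its log2 deviation from the mean of all libraries was fitted on GC content and length, and a tilt was taken as the median of that trend in the tenth of genes richest in GC minus that in the tenth poorest in GC. It was 0.05 to 0.24 in sedentary and -0.5 to -0.06 in trained TG males, without overlap, whereas the trained and sedentary ranges overlapped in the other 3 strata. Over all genes, the median log2 fold change with training was 0.2 in the tenth of genes with the lowest GC content and -0.16 in the tenth with the highest. Tfb2m and Esrrg (42.5% GC each) and Tfam (44.9%), which were higher, lie below the median transcript of 49.8% GC, and Ppargc1b (57.8%), which was lower, lies above it. Ppargc1a, the poorest in GC of the 10 (41.7%), gave 0.07 ± 0.07.

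With a correction of each library for GC content and length, chosen after seeing the data, 2.17% of all genes passed the threshold and none of the 4 kept its call. Tfam was then 0.13 ± 0.04 (adjusted p = 0.0938), Ppargc1b -0.15 ± 0.07 (adjusted p = 0.219), Tfb2m 0.03 ± 0.04 (adjusted p = 0.776) and Esrrg 0.02 ± 0.05 (adjusted p = 0.897) on the log2 scale. Esrra, at 61.8% GC the most GC-rich of the 10, went from -0.03 ± 0.05 (adjusted p = 0.753) to 0.14 ± 0.04 (adjusted p = 0.0315). Base composition and training cannot be told apart in these 17 hearts. Blood genes moved too: all 6 were lower in trained TG males, with a summed level of 291 to 4630 CPM in sedentary and 260 to 555 CPM in trained hearts (medians 549 and 384), and 0 of the 6 were called without the 3 libraries richest in them. Their part in the result was not tested beyond 2 refits: with blood and skeletal muscle genes as covariates Ppargc1b alone of the 10 was called, and without the 3 libraries richest in blood genes (sedentary TG males 5 and 2 and sedentary TG female 2, at 4630, 1150 and 1180 CPM) Ppargc1b and Tfam were, while Tfb2m (adjusted p = 0.0657) and Esrrg (adjusted p = 0.196) were not. Esrrg also lost its call in 9 of the 17 fits that each left out 1 of these hearts, and with median-of-ratios size factors (adjusted p = 0.0516).

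**Figure D2:**
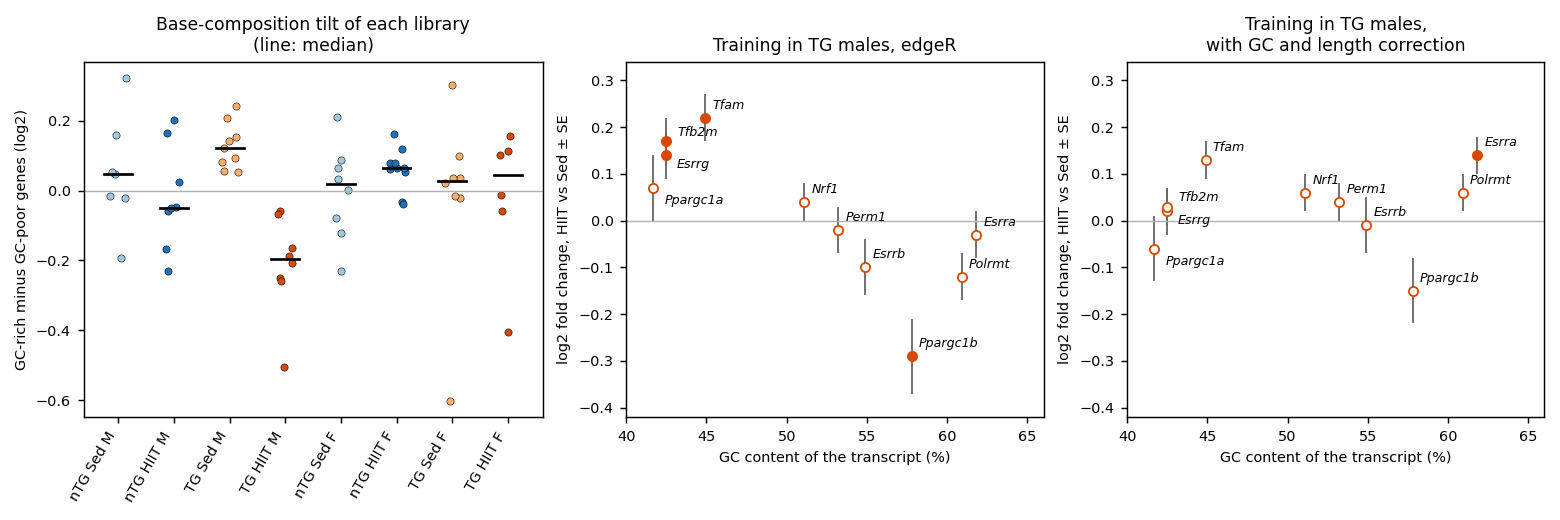
Left, base-composition tilt of each of the 64 libraries by group (log2, line at the median), with sedentary TG males at 0.05 to 0.24 and trained TG males at -0.5 to -0.06. Middle and right, log2 fold change with training in TG males ± SE against the GC content of each transcript, before and after correction for GC and length (filled points, adjusted p under 0.05): Tfam, Tfb2m, Esrrg and Ppargc1b are filled before it and Esrra after it.

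In TG females, training moved 0 of the 10 genes past the threshold in edgeR, and 0% of all genes (606 genes had an unadjusted p under 0.05, DESeq2 called 0 and limma voom called 3). Ppargc1b was 59.6 to 91.2 CPM (median 67.3) in sedentary and 50.3 to 71.4 CPM (median 60.4) in 6 trained TG females, a log2 fold change of -0.2 ± 0.09 (adjusted p = 1). Tfam gave 0.09 ± 0.06 (adjusted p = 1). Averaged over the sexes, Ppargc1b (-0.25 ± 0.06, adjusted p = 0.0354) and Tfam (0.15 ± 0.04, adjusted p = 0.0491) were called in TG hearts, where 0.52% of all genes were. With the correction for GC and length, under which 0.00591% of all genes were called, Ppargc1b was -0.17 ± 0.05 (adjusted p = 0.195) and Tfam 0.11 ± 0.03 (adjusted p = 0.183), neither called. Neither was called without the 3 libraries richest in blood genes either (adjusted p = 0.0551 and 0.159).

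Whether training acted differently in TG and nTG hearts was tested as an interaction, and 0 of the 10 genes passed in males or in females, as 0% of all genes did in each in edgeR (2503 and 1093 genes had an unadjusted p under 0.05, DESeq2 called 13 and 0, and limma voom 300 and 0). The smallest p of the 10 in males was that of Tfb2m, with a difference of log2 fold changes, TG minus nTG, of 0.17 ± 0.07 (adjusted p = 0.266), and next was Ppargc1b with -0.25 ± 0.11 (adjusted p = 0.298). With the correction for GC and length these were 0.05 ± 0.06 (adjusted p = 0.799) and -0.15 ± 0.1 (adjusted p = 0.656). In females it was that of Esrrg, -0.17 ± 0.07 (adjusted p = 0.751). The training effect in TG females minus that in TG males gave 0 calls among the 10 and 0% of all genes in edgeR (3063 had an unadjusted p under 0.05, DESeq2 called 223, limma voom 927, and leaving out 1 library gave edgeR 0 to 904, the latter without trained TG female 6), with the smallest p again for Esrrg, -0.21 ± 0.07 (adjusted p = 0.123), and -0.08 ± 0.07 (adjusted p = 0.675) with the correction for GC and length.

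The transgene lowered part of the set. Averaged over the 4 strata of sex and training, 5 of the 10 genes were called, all lower in TG hearts, where 39% of all genes were called, 20.5% lower and 18.5% higher. Esrrb had the largest change, with a log2 fold change of -0.25 ± 0.03 (adjusted p = 7.48e-10). Perm1 fell by 0.15 ± 0.02 (adjusted p = 8.24e-07), Esrra by 0.14 ± 0.03 (adjusted p = 6.6e-06), Polrmt by 0.11 ± 0.03 (adjusted p = 0.000692) and Ppargc1a by 0.09 ± 0.04 (adjusted p = 0.0382) on the log2 scale. Ppargc1b, Esrrg, Nrf1, Tfam and Tfb2m were not called, with 95% intervals that lie between -0.09 and 0.08. With the correction for GC and length 40.9% of all genes and the same 5 genes were called. Ppargc1a lost its call without the 3 libraries richest in blood genes (adjusted p = 0.0733).

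Esrrb, the ERR family member known from placenta and stem cells and also present in heart, was lower in TG hearts in each of the 4 strata. It was 49.8 to 65.9 CPM (median 59.5) in sedentary nTG and 46.9 to 56 CPM (median 54) in sedentary TG males, a log2 fold change of -0.17 ± 0.06 (adjusted p = 0.0385). Among trained males it was 50.7 to 67.1 CPM in nTG and 43.1 to 57.4 CPM in TG, a change of -0.3 ± 0.06 (adjusted p = 0.000322). In sedentary females the ranges were 49.3 to 61.5 and 43.4 to 60.6 CPM, with a log2 fold change of -0.2 ± 0.06 (adjusted p = 0.0497). In trained females they were 52.8 to 71.0 CPM in nTG and 44.1 to 51.7 CPM in TG, a change of -0.35 ± 0.06 (adjusted p = 9.73e-05). Trained females were the only one of the 4 strata in which the Esrrb ranges did not overlap, as was the case for 2.57% of all genes there.

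Perm1 was called in the trained hearts of both sexes. It was 477 to 574 CPM (median 537) in trained nTG and 412 to 493 CPM (median 456) in trained TG males, with all 8 TG values below the nTG median and a log2 fold change of -0.24 ± 0.05 (adjusted p = 0.000464). In trained females the ranges were 440 to 534 and 395 to 466 CPM, a change of -0.18 ± 0.05 (adjusted p = 0.0105). In sedentary hearts it gave -0.11 ± 0.05 (adjusted p = 0.101) in males and -0.08 ± 0.05 (adjusted p = 0.41) in females. Because the interactions of genotype and training did not pass, trained and sedentary hearts are not shown to differ in this.

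Esrra, the ERR with the highest level per kb here, was 142 to 171 CPM in sedentary nTG and 125 to 155 CPM in sedentary TG males (-0.14 ± 0.05 on the log2 scale, adjusted p = 0.0448). Among trained males it was 143 to 169 and 119 to 152 CPM (-0.17 ± 0.05, adjusted p = 0.0132), and among trained females 145 to 169 and 128 to 153 CPM (-0.17 ± 0.05, adjusted p = 0.0167). Sedentary females gave -0.08 ± 0.05 (adjusted p = 0.449). Polrmt was 49.8 to 64.3 CPM in trained nTG and 43.6 to 53 CPM in trained TG males (-0.2 ± 0.05, adjusted p = 0.00642), and -0.12 ± 0.04 (adjusted p = 0.0211) with the correction for GC and length. In trained females it was 52.3 to 58.8 and 44.8 to 53.1 CPM (-0.15 ± 0.05, adjusted p = 0.0491). In all 6 trained TG females and all 8 trained TG males both genes lay below the nTG median. Ppargc1a passed in no single stratum, with log2 fold changes of -0.06 in sedentary and -0.12 in trained males, and of -0.03 in sedentary and -0.16 in trained females.

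Counted by stratum, the transgene moved 4 of the 10 genes in trained males (14% of all genes), 4 in trained females (14.8%), 2 in sedentary males (20.6%) and 1 in sedentary females (4.37%), in every case lower. The shares of all genes called lower were 8.31%, 9.43%, 11.2% and 2.78%, and those called higher 5.65%, 5.37%, 9.39% and 1.58%, in the same order. Transgene differences in trained males moved with base composition too. The median log2 fold change there was 0.13 in the tenth of genes lowest in GC content and -0.06 in the highest. Esrra (61.8% GC) and Polrmt (60.9%), both called lower there, are the richest in GC of the 10. The correction for GC and length left Esrra in trained males uncalled (-0.09 ± 0.04, adjusted p = 0.123, with 12.9% of all genes called), and added Ppargc1a there (-0.22 ± 0.07, adjusted p = 0.0324) and Polrmt in sedentary males (-0.12 ± 0.04, adjusted p = 0.0165, with 22.1% of all genes called). The calls in sedentary hearts ended without the 3 libraries richest in blood genes and with median-of-ratios size factors or fits of 1 sex (without those libraries, adjusted p of 0.191 for Esrra and 0.0574 for Esrrb in males, 0.0566 for Esrrb in females). They also ended in most fits without 1 library: leaving out any 1 of 12 of the 16 male hearts ended the call of Esrra (it held without sedentary TG 7 or 8 or nTG 1 or 6), 9 of 16 that of Esrrb in males (sedentary TG 4, 5, 6, 8 or 9, nTG 1, 3, 4 or 7), and 12 of 16 that of Esrrb in females (it held without sedentary TG 1 or 5 or nTG 1 or 4). The 4 calls in trained males and those of Esrrb and Perm1 in trained females held in all 16 fits that each left out 1 library. With the blood and skeletal muscle covariates Esrra lost its call in trained males (adjusted p = 0.0543). In that fit Esrrb alone kept its call in trained females, where Perm1 (adjusted p = 0.0747), Esrra (adjusted p = 0.244) and Polrmt lost theirs. Esrra in trained females ended without TG 2 or 6, and Polrmt there held without nTG 4, 7 or 9 alone.

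**Figure D3:**
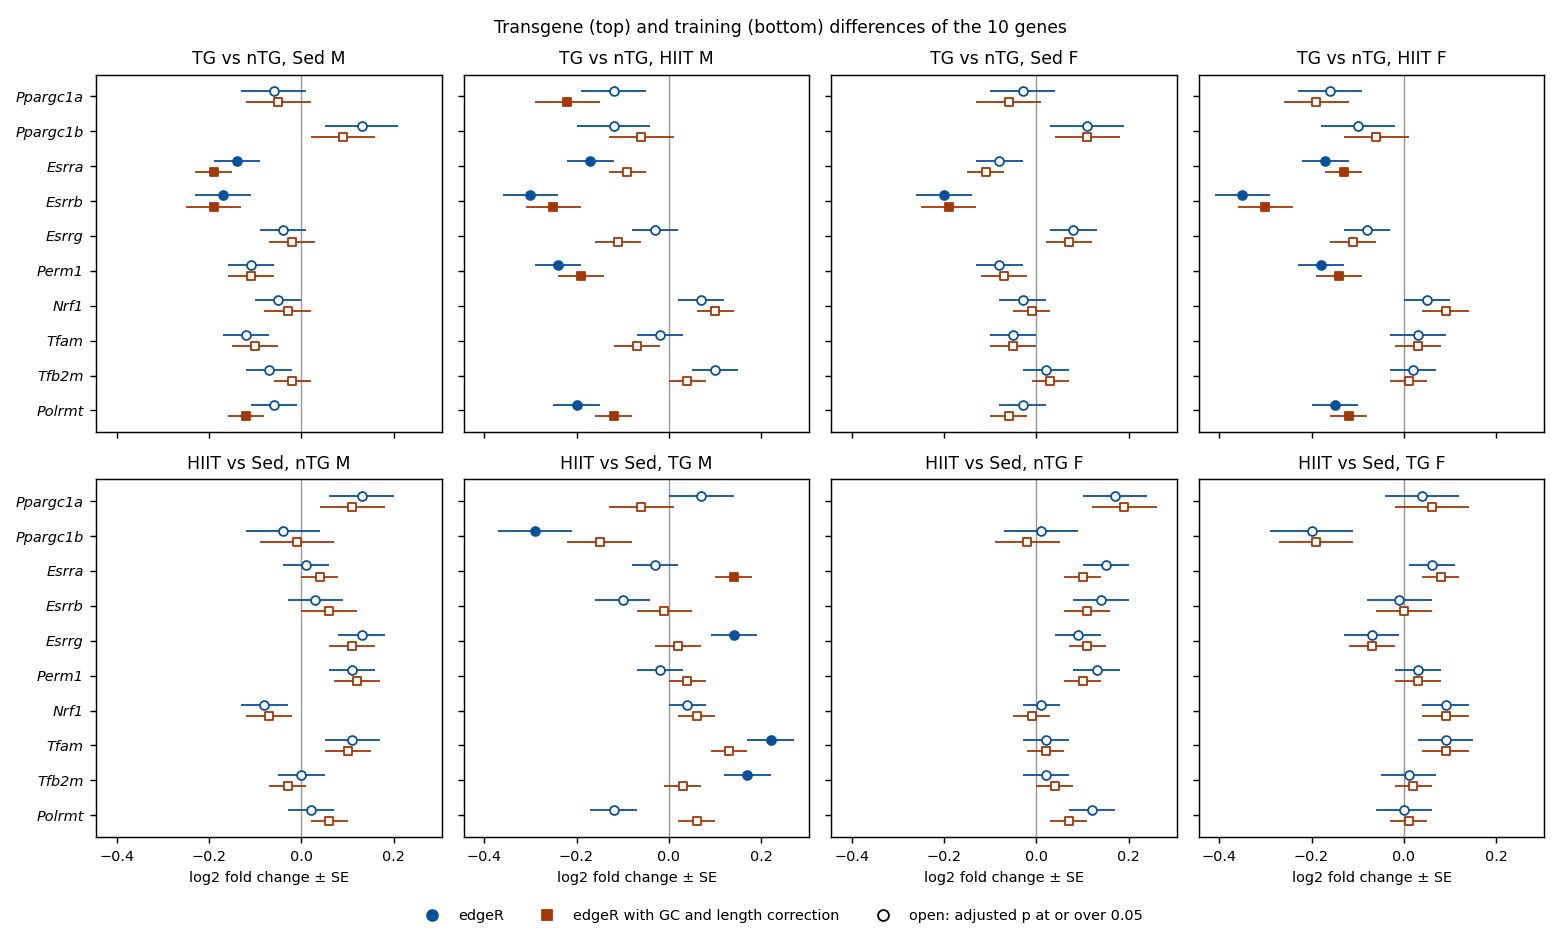
Log2 fold changes ± SE of the 10 genes with the transgene (top) and with training (bottom) in each sex, before (circles) and after (squares) correction for GC and length, filled where the adjusted p is under 0.05. The filled points of the top row all lie left of 0, and in the bottom row filled points occur in TG males alone.

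Markers of cell types moved with the transgene as well. Averaged over the strata, 5 of 5 fibroblast and 4 of 4 macrophage markers were higher in TG hearts, and 5 of 7 cardiomyocyte markers were lower, with Tnnt2 the 1 higher. The summed fibroblast level was 612 to 1420 CPM over the nTG groups and 761 to 1710 CPM over the TG groups, and the macrophage sum 101 to 178 and 129 to 231 CPM. In trained males 5 of 6 blood genes were lower in TG hearts. Their part in the fall of Esrra, Esrrb, Perm1 and Polrmt was not tested. In bulk tissue, fewer cardiomyocytes and less RNA of a gene per cardiomyocyte cannot be told apart. With blood and skeletal muscle genes as covariates, Esrrb and Perm1 remained the 2 genes called in the mean of the strata, where 1828 of 16913 genes were called, and Ppargc1a went to 0.03 (adjusted p = 0.798) on the log2 scale; the skeletal list itself moved with genotype, with 3 of its 4 measured genes higher and 1 lower in TG hearts.

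Of 27 genes known as targets of ERR and PGC-1, 20 were lower in sedentary TG males and 1, the uncoupling protein gene Ucp2, named after its value was seen, was higher (0.47 ± 0.15, adjusted p = 0.0203), with a median log2 fold change of -0.26 against -0.01 for all genes. In trained females 19 were lower, in trained males 13 and in sedentary females 5, with none higher. Averaged over the strata 22 were lower. Of all genes, 11.2% were lower in sedentary males, 9.43% in trained females, 8.31% in trained males, 2.78% in sedentary females and 20.5% averaged. With blood and skeletal muscle genes as covariates the targets called lower were 2 in sedentary males, 1 in trained females, 3 in trained males, 0 in sedentary females and 6 averaged. That fit lowered the calls over all genes too: of 16913 genes, those lower were 182, 597, 882, 275 and 1160 in the same order, against 1900, 1595, 1405, 471 and 3475 without covariates. Without the 3 libraries richest in blood genes 20 targets were called lower in sedentary males, where 1152 of all genes were, and none higher. Acadm, a fatty acid oxidation enzyme, changed by -0.47 ± 0.06 (adjusted p = 1.35e-07) in sedentary males and -0.26 ± 0.06 (adjusted p = 0.0074) in sedentary females. Cox7a1, the muscle form of a cytochrome oxidase subunit, changed by -0.41 ± 0.07 (adjusted p = 2.5e-05) in trained males. Hadha, another enzyme of fatty acid oxidation, changed by -0.34 ± 0.06 (adjusted p = 0.000149) in trained females, and citrate synthase (Cs) by -0.29 ± 0.05 (adjusted p = 5.86e-06) in sedentary males. The correction for GC and length took the count in trained males from 13 to 6, and gave 20 in sedentary males, 4 and 16 in sedentary and trained females and 22 averaged. In sedentary males 4 of 7 cardiomyocyte markers were lower with the transgene and 1 was higher. The fibroblast sum was 717 to 959 CPM in sedentary nTG and 797 to 1390 CPM in sedentary TG males, and the macrophage sum 101 to 140 and 129 to 231 CPM. The part of these markers in the fall of the targets was not tested.

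Training in TG males was compared with the same 9 sedentary TG hearts as the transgene contrast in sedentary males. A shift of those hearts alone moves both contrasts in opposite directions. After training of TG males, 10 of the 27 targets were higher and none lower, where 10.3% of all genes were higher. With the correction for GC and length 8 were higher, where 2.17% of all genes were called in either direction. They include Idh3a, a Krebs cycle subunit (0.3 ± 0.06, adjusted p = 0.00137), and Ndufs1, a core subunit of complex I (0.29 ± 0.06, adjusted p = 0.00176), and both kept their call with that correction (adjusted p = 0.01 and 0.0198). The count was 4 without the 3 libraries richest in blood genes and 2 with the blood and skeletal muscle covariates, where 730 and 343 of 16913 genes were higher. Markers of cell types moved in the same comparison: 2 of 7 cardiomyocyte markers were higher (summed level 56400 to 68800 CPM in sedentary and 53300 to 70400 CPM in trained hearts), and 2 of 4 endothelial (889 to 1010 and 773 to 946 CPM), 2 of 4 macrophage (129 to 231 and 135 to 231 CPM) and 1 of 5 fibroblast markers (797 to 1390 and 761 to 1710 CPM) were lower. With the correction for GC and length 2 cardiomyocyte markers were higher, and 1 endothelial, 0 macrophage and 0 fibroblast markers lower. Their part in the change of the targets was not tested. No target passed with training in the other 3 strata. Without the correction for GC and length, training of TG males gave -0.29 ± 0.08 for Ppargc1b, which was called. Ppargc1a (0.07 ± 0.07) and Esrra (-0.03 ± 0.05) were not called. With the correction Ppargc1b was -0.15 ± 0.07 (adjusted p = 0.219), Ppargc1a -0.06 ± 0.07 (adjusted p = 0.68) and Esrra 0.14 ± 0.04 (adjusted p = 0.0315).

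Of 23 other genes that transcribe, copy or maintain mitochondrial DNA, 9 were lower with the transgene in sedentary males, where 11.2% of all genes were, and 3 without the 3 libraries richest in blood genes (1152 of 16913 genes lower) or 0 with the covariates (182 of 16913). In the trained hearts of each sex 1 was lower, Twnk, the mitochondrial helicase (-0.22 ± 0.05, adjusted p = 0.000711, in males and -0.17 ± 0.05, adjusted p = 0.0159, in females), and in sedentary females 0 were. Its call in trained females was lost with the correction for GC and length (-0.12, adjusted p = 0.0849) and with the covariates. Lrpprc, which stabilises mitochondrial mRNAs, was lower in sedentary TG males (-0.23 ± 0.05, adjusted p = 0.00112) and higher after their training (0.23 ± 0.05, adjusted p = 0.00267); both contrasts use the same 9 sedentary TG hearts. After training of TG males 8 of the 23 were higher, where 10.3% of all genes were, 3 without the 3 libraries richest in blood genes, 1 with the covariates (730 and 343 of 16913 genes higher), and 2 with the correction for GC and length, Lrpprc among them (adjusted p = 0.0253). Of the 13 mRNAs encoded in mitochondrial DNA, the transgene lowered 3 in trained males, mt-Nd4l, mt-Nd5 and mt-Nd6, and 1, mt-Co1 (-0.24 ± 0.06, adjusted p = 0.00414), in sedentary males, where 8.31% and 11.2% of all genes were called lower. The correction for GC and length made it 8 in trained males (1216 of 16913 genes lower), and the covariates 0 in both (882 of 16913 genes lower in trained and 182 in sedentary males). The 8 do not include mt-Nd4l, which was -0.38 with the correction (adjusted p = 0.0566). After training of TG males mt-Nd3 (0.68 ± 0.15, adjusted p = 0.00198) and mt-Co1 (0.25 ± 0.06, adjusted p = 0.00401) were higher, both calls were lost with the correction for GC and length, under which 1 of the 13, mt-Nd6 (named after its value was seen), was called lower, and the median log2 fold change of the 13 went from 0.16 to -0.12. Mitochondrially encoded genes held 13.4% to 20.4% of the counts of a library.

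Among 16 genes of mitochondrial fusion, fission and mitophagy, the transgene lowered 8 in sedentary and 6 in trained males, 0 in sedentary and 7 in trained females, and 12 in the mean, with none higher. The shares of all genes called lower were 11.2%, 8.31%, 2.78%, 9.43% and 20.5% in the same order. The covariates left 0, 2, 0, 4 and 3, where 182, 882, 275, 597 and 1160 of 16913 genes were lower. Pink1, the kinase that marks damaged mitochondria, changed by -0.29 ± 0.03 (adjusted p = 1.43e-10) and Mfn2, which fuses outer membranes, by -0.17 ± 0.02 (adjusted p = 4.97e-10) averaged over the strata. With training of TG males 6 of the 16 were higher, where 10.3% of all genes were, among them the fission genes Dnm1l (0.32 ± 0.06, adjusted p = 0.000769) and Mff (0.2 ± 0.04, adjusted p = 0.00202), and 3 with the correction for GC and length. The sedentary TG males serve both in this contrast and in that of the transgene in sedentary males.

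The counts of coregulators, kinases and partner factors averaged over the strata are to be read against 20.5% of all genes called lower and 18.5% higher there. Of 17 coregulators 5 were lower with the transgene and 2 higher, the lower ones led by the mitochondrial deacetylase Sirt3 (-0.24 ± 0.03, adjusted p = 8.81e-11) and the corepressor Ncor1 (-0.11 ± 0.01, adjusted p = 9.91e-09). The 2 higher were Pprc1, the third member of the PGC-1 family (0.16 ± 0.03, adjusted p = 0.000142), and Sirt1 (0.1 ± 0.04, adjusted p = 0.022), both named after their values were seen. Pprc1 was higher in sedentary TG males (0.29 ± 0.07, adjusted p = 0.00119) and, like Ppargc1b, lower after their training (-0.27 ± 0.07, adjusted p = 0.00375), which the correction for GC and length reduced to -0.15 (adjusted p = 0.109). Both contrasts use the same sedentary TG males. Of 15 AMPK subunits and regulators, 4 were higher and 5 lower. Prkag3, a gamma subunit of AMPK known from skeletal muscle, rose by 0.64 ± 0.07 (adjusted p = 4.45e-12) and Prkab1 fell by 0.29 ± 0.04 (adjusted p = 1.46e-09). Of 21 partner transcription factors, 2 were higher and 6 lower, among them Myc (0.44 ± 0.09, adjusted p = 3.47e-05) and Ppara, the receptor that switches on fatty acid oxidation (-0.2 ± 0.04, adjusted p = 3.81e-05). With blood and skeletal muscle covariates the averaged counts were 1 higher and 3 lower for the coregulators, 1 and 3 for the AMPK genes and 1 and 1 for the partner factors, where 668 of 16913 genes were higher and 1160 lower. In nTG hearts training moved none of the genes of these lists past the threshold in either sex.

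**Figure D4:**
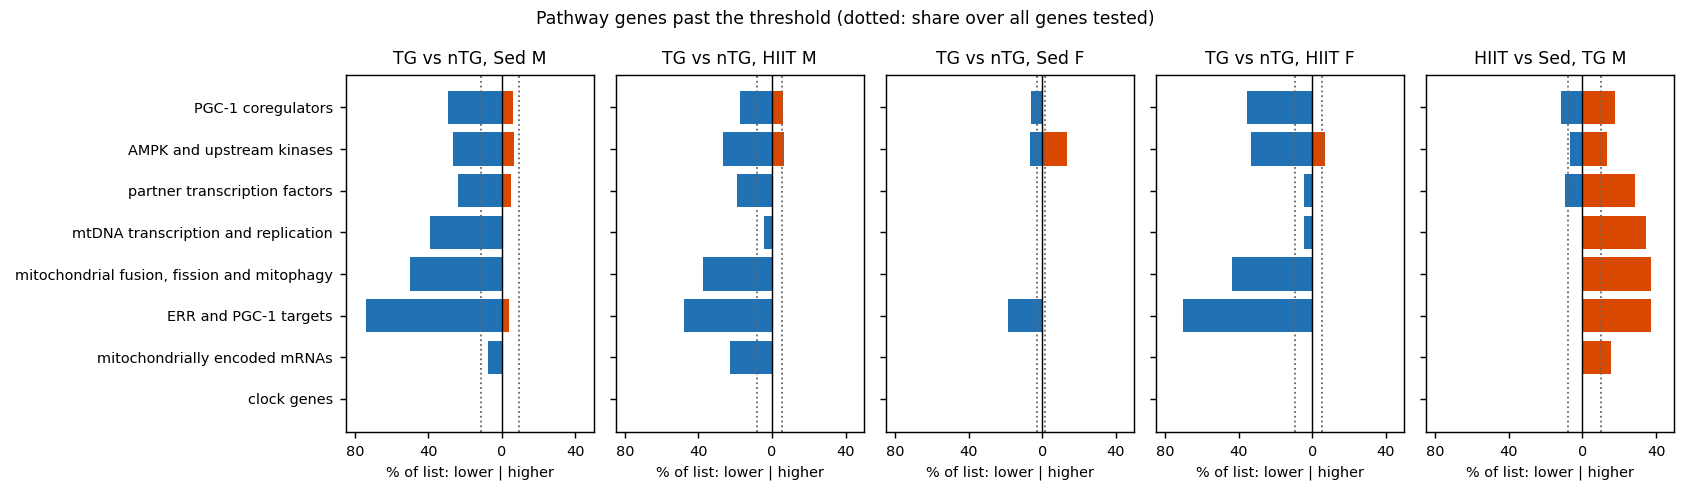
Share of each pathway list called higher (right) or lower (left) with the transgene in 4 strata and with training in TG males, in percent of the genes of the list in the table; dotted lines give the share among all genes tested. The ERR and PGC-1 targets reach the furthest to the left with the transgene in sedentary males, 20 of 27 genes against 11.2% of all genes, and no clock gene was called in the comparisons drawn.

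Within groups, the 10 genes did not vary as one block. Across the 64 libraries, with each group centred on its mean log2 CPM, the highest correlation among pairs was between Esrra and Polrmt (r = 0.66), the 2 members richest in GC, followed by Esrrg and Tfb2m (0.62), 2 of the 3 poorest. Esrra and Perm1 (0.59), Polrmt and Perm1 (0.58) and Tfam and Tfb2m (0.57) came next. Ppargc1a correlated best with Perm1 (0.43), at 0.22 with Ppargc1b and at 0.08 with Tfam, and Nrf1 stayed between -0.09 and 0.12 with every other member. All pairs share their libraries, depth and base-composition tilt, so these values are descriptions.

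Over 9746 genes with a mean of at least 5 CPM, the genes most like Ppargc1a by the same measure were Flcn (r = 0.7), Mef2a (0.67) and Irf2bp2 (0.66). For Esrra they were Endog (0.84), Tmem201 (0.82) and Mlf2 (0.81), whose transcripts hold 64.3%, 58.7% and 58.1% GC against 61.8% for Esrra. For Perm1 they were Nt5dc3 (0.83), Gpr157 (0.77) and Kpna6 (0.76). The 8 group means of Ppargc1a correlated with those of these 3 genes at 0.05, 0.28 and -0.13, those of Esrra with its genes at 0.87, 0.98 and 0.81, and those of Perm1 at 0.9, 0.62 and 0.94.

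Sex made no called difference among the 10 in sedentary nTG hearts, where 2.22% of all genes were called. Those 375 genes became 204 without sedentary nTG female 4 and 513 without sedentary nTG male 5. Tfb2m came nearest, at 43.3 to 52.6 CPM in males and 38.6 to 48.8 CPM in females (log2 fold change, female over male, -0.13 ± 0.05, adjusted p = 0.212). With the correction for GC and length it was called (-0.14 ± 0.04, adjusted p = 0.0437), as were 3.4% of all genes. The transgene effect did not pass as different between the sexes in sedentary hearts for any of the 10, nor for any other gene in edgeR (0% of all genes, with 1471 at an unadjusted p under 0.05, 1 called by DESeq2 and 0 by limma voom).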

How the data were processed

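Hearts were profiled by bulk RNA sequencing of total RNA after depletion of ribosomal RNA, in 64 libraries. The deposited gene table holds raw counts and the deposited lncRNA table expected counts, 1 column per library. Per the submitters' processing notes, cutadapt 2.3, FastQC 0.11.8, MultiQC 1.7, STAR 2.7.8a and RSEM 1.3.3 were used with GRCm38 (mm10). Their roles, the annotation and strand settings are not given in the sources used here. Symbols, exon lengths and GC content came from GENCODE M21 (16879 of 16913 identifiers matched), promoters from RefSeq.

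Each lncRNA column took the gene column with the highest Pearson r of centred log2 CPM (pseudocount 0.5, transcripts averaging 20 counts or more in both tables), whose label was used. Gene counts were tested in R 4.3.3 with edgeR 4.0.16 (TMM, quasi-likelihood F test, 2-sided) in 1 model of 8 group means. All genes passed filterByExpr. P-values were adjusted by Benjamini-Hochberg over all genes, at a threshold of 0.05, and no p was adjusted over the 10 genes or a list alone. CPM are TMM-scaled, except those of Tnnt2 in the check of the labels, which are per library total. A mean of sexes or strata weights each equally. The labels call the libraries biological replicates without naming the animals, and p-values measure the spread between these libraries.

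The 10 genes, the lists and the tests were chosen with earlier results of these data known. Named list genes are at most the 3 with the smallest p among those called in a comparison. Ucp2, Pprc1 in the mean of strata, Sirt1 and mt-Nd6 in TG male training were added after their values were seen. Alternatives were median-of-ratios size factors, DESeq2 1.42.0 (adjusted over the genes its independent filtering keeps, 2813 to 16913 by comparison), limma voom with quality weights (limma 3.58.1), no filter on low counts, fits of 1 sex, a replicate block, gene columns by deposited name, covariates from blood and skeletal muscle genes, and leaving out each library. A correction for GC and length, and leaving out the 3 libraries richest in blood genes (by the summed CPM of 6 blood genes), were added after seeing the data. The script was tested on simulated data.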

Additional observations from a re-analysis of the deposited data

Results flagged for a closer look

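Single libraries that stood apart from the rest of their group were sought in 80 sets of values, 10 genes in 8 groups, by the gap to the nearest library over the range (Dixon's 95% critical value). That test marks about 1 group in 20 by chance, or 4 of 80, and 2 were found. Ppargc1a was 154 CPM in trained TG female 3, against 114 to 128 CPM in the other 5 libraries of the group. Tfam was 23.9 CPM in sedentary TG female 7, against 19 to 20.3 CPM in the others. That library also had the lowest tilt of its group, -0.602 against -0.02 to 0.302 on the log2 scale (the fitted trend on GC content and length, GC-rich minus GC-poor genes), and its part in the Tfam value was not tested. Trained TG female 3 also had the highest summed levels of its group for blood (611 CPM), atrial (241 CPM), brown fat (19.4 CPM), fibroblast (1220 CPM) and macrophage (195 CPM) markers, and whether these bear on its Ppargc1a was not tested.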

How the results depend on the processing

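Of the 10 genes, 0 were called with training in nTG males, 0 in nTG females and 0 in their mean, 4 in TG males, 0 in TG females and 2 in their mean, and with the transgene 4 in trained males, 4 in trained females, 2 in sedentary males, 1 in sedentary females and 5 over the strata. Median-of-ratios size factors left 1 in the TG training mean and, for the transgene, 0 in the sedentary hearts of either sex. They also ended the calls of Esrrg in TG male training (adjusted p = 0.0516) and, for the transgene, Polrmt in trained females (adjusted p = 0.069) and Ppargc1a over the strata (adjusted p = 0.0542). Fits of 1 sex left 0 in sedentary hearts too and ended the call of Polrmt in trained females (adjusted p = 0.0531). Added by limma voom were Tfb2m in the TG training mean (adjusted p = 0.0333) and Perm1 with the transgene in sedentary males (adjusted p = 0.0419). DESeq2 gave 1 in nTG females and 1 in the nTG training mean, and 1 in sedentary males for the transgene. It also ended the call of Polrmt in trained females (adjusted p = 0.0614). Blood and skeletal muscle covariates gave 1 in TG male training, 1 in the nTG mean (Ppargc1a, 0.18, adjusted p = 0.0397), 0 in the TG mean, and for the transgene 0 in the sedentary hearts of either sex, 1 in trained females and 2 over the strata, with Ppargc1a at 0.03 there. They also ended the call of Esrra with the transgene in trained males (adjusted p = 0.0543). The GC and length correction gave 1 in TG male training (Esrra, 0.14), 0 in the TG mean and 1 for sex. Without the 3 libraries richest in blood genes there were 2 in TG males and 0 in the TG mean, and for the transgene 0 in the sedentary hearts of either sex. Polrmt in trained females (adjusted p = 0.0772) and Ppargc1a over the strata (adjusted p = 0.0733) also lost their calls for the transgene.

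With gene columns by deposited name, 1 was called with training in nTG males (Ppargc1a, -0.29), 4 in the nTG mean (Ppargc1a, -0.15; Esrra, -0.15; Esrrb, -0.21; Perm1, -0.14), and 0 in TG males, the TG mean, all 4 transgene strata and their mean. Directions then turned for Ppargc1b (0.08), Esrrg (-0.13), Tfam (-0.11) and Tfb2m (-0.01) in TG male training, Ppargc1b (0.01) and Tfam (-0.05) in the TG mean, Esrra (0.03), Esrrb (0.1) and Polrmt (0.02) for the transgene in trained males, and Polrmt (0.0) over the strata. By construction these names mix the sexes and genotypes. Over all genes, the calls in TG male training went from 3036 to 367 with the GC and length correction, 498 with the covariates, 1299 without the blood-rich libraries and 0 by deposited name, those in the TG mean from 88 to 437 with DESeq2, 1807 with limma voom, 180 with the block, 0 with the covariates, 1 with the correction, 14 without the blood-rich libraries and 2 by name, those in the nTG mean from 65 to 145 with DESeq2, 254 with the covariates, 146 with the correction, 42 with the block, 21 without the blood-rich libraries and 2407 by name, those in nTG females from 25 to 131 with DESeq2, 100 with limma voom, 13 with median-of-ratios size factors, 3 with the block, 1 without the blood-rich libraries, 42 by name and 0 in fits of 1 sex, and those with the transgene, all with the covariates, from 6603 to 1828 over the strata, 3488 to 269 in sedentary males (2302 there without the blood-rich libraries), 2503 to 832 in trained females, 2361 to 1346 in trained males and 739 to 468 in sedentary females (1269 there with limma voom). All of these transgene counts were 0 by deposited name. The 375 calls for sex became 575 with the correction and 0 by name. The causes were not tested.

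Leaving out 1 library gave 3 to 4 calls in TG males, 0 to 2 in the TG mean, and for the transgene 2 to 4 in trained females, 4 to 4 in trained males, 0 to 3 in sedentary males, 0 to 1 in sedentary females and 4 to 5 over the strata. In TG males Ppargc1b, Tfam and Tfb2m held in 17 of 17 such fits and Esrrg in 8 (lost without trained 1, 2, 3, 6 or 7 or sedentary 2, 4, 5 or 6). In the TG mean Ppargc1b held in 21 of 31 and Tfam in 10, and the count of all genes called ran from 0 (without trained TG female 6) to 1555 (without sedentary TG female 7). In trained females Esrra was lost without TG 2 or 6, and Polrmt held without nTG 4, 7 or 9 alone. Ppargc1a over the strata held in 44 of 64.

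Replicate numbers did not pair the hearts: over 205 same-numbered pairs the median correlation of deviations was 0.021, against 0.002 for other numbers, and 9 of 64 libraries correlated best with their own number. With a replicate block, 2 of the 10 were called for the transgene in trained females, without Esrra (adjusted p = 0.074) and Polrmt (adjusted p = 0.0912), Ppargc1a was lost over the strata (adjusted p = 0.05), and no other call of the 10 changed. Each of the 10 genes had at least 441 counts in every library.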
